A study of Mus musculus with 3 samples.

Results

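Metallothioneins are small cysteine-rich proteins that bind zinc and copper, and 9 genes for metallothioneins and copper handling were followed through the cells of the mouse gallbladder. They were taken by symbol, as Mt1, Mt2, Slc31a1, Slc31a2, Atox1, Ccs, Cox17, Atp7a and Atp7b, from the 31053 genes of the deposited count matrix. No cut on a measured value was applied, but the list was chosen with earlier results of these data known. All 9 were found, and all 9 reached 10 CPM (UMIs, the counted RNA molecules, per 1000000 of all genes) in at least 1 cell class. The study gave male C57BL/6 mice vehicle by oral gavage for 6 weeks, nanoplastics (plastic particles below the micrometre scale) for 3 weeks, or nanoplastics for 6 weeks. Each of these 3 groups is 1 droplet-based 3′ single-cell library, made from 10 gallbladders that were pooled and digested with trypsin, so no group has a replicate. The barcodes carry a library number, 1, 2 or 3, that neither files nor labels tie to a group. Exposed and vehicle mice were therefore not compared. Libraries 1, 2 and 3 are given side by side as 3 unassigned samples, without a test.

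Copper enters cells through the high-affinity transporter CTR1, encoded by Slc31a1. Small chaperones then carry it to its users: ATOX1 to the copper-pumping ATPases ATP7A and ATP7B, CCS to superoxide dismutase 1, and COX17 to the assembly of cytochrome c oxidase in mitochondria. ATP7B is known for loading copper onto ceruloplasmin and for moving surplus copper into bile in hepatocytes, and ATP7A for copper export in most other tissues. Metallothioneins store zinc and copper, and their genes are switched on by metals through the zinc-sensing factor MTF1, and by glucocorticoids. The gallbladder epithelium concentrates the bile into which the liver excretes copper.

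The 2 metallothionein genes lie side by side on chromosome 8 of GRCm38, both on the plus strand. In GENCODE M21, Mt2 spans chr8:94172664-94173568 and Mt1 spans chr8:94179082-94180327, with 5513 bases between them. An antisense gene, Gm45774, overlaps Mt2. MTF1 binds metal response elements, so the core letters TGCACNC and TGCGCNC were searched on both strands in the RefSeq promoter windows of build GRCm38.p6, which run from 250 bases before to 50 after a start site. Of the 9 genes, 7 had such a window: all but Ccs and Cox17. Metals are known to act on Mt1 and Mt2 through metal response elements. The bases before the RefSeq start sites of Mt2 (chr8:94172368-94172617) and Mt1 (chr8:94178839-94179088) follow, plus strand, 5′ to 3′. Matches to the core letters are in capitals, and whether they are the elements through which metals act was not tested.
Mt2: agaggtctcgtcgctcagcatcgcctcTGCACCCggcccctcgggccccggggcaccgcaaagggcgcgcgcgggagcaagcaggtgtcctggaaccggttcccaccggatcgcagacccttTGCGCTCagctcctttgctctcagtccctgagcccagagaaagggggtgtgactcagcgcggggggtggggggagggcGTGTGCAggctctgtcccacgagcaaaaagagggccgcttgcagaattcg
Mt1: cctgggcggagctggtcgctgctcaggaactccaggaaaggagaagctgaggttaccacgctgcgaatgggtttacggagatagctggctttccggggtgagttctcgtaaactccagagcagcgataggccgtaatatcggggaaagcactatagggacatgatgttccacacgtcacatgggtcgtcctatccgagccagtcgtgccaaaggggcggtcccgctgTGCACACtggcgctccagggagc

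Further cores lay just past these start sites, and a short run shows each of them, together with the pair of neighbouring cores before the start site of Atp7a (chrX:106027086-106027115).
Mt1, chr8:94179089-94179118: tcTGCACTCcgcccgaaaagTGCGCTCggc
Mt2, chr8:94172616-94172635: cgggtcGTGCGCAggcccag
Atp7a: atgcatGCGTGCAccaggGGGCGCAaggag

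In the whole window, Mt2 held 4 cores, Mt1 3, Atp7a 2, Slc31a2 and Atp7b 1 each, and Slc31a1 and Atox1 0. Of all 32851 promoter windows of the same length, 25.7% held at least 1 core, 7.11% at least 2, 1.97% at least 3 and 0.517% at least 4. The core of the antioxidant response element, TGACNNNGC, occurred once each in the windows of Mt2, Slc31a2 and Atox1, and in 12.4% of all windows. A match is a match of letters only. GENCODE M21 gives 3 transcripts for Mt1 and 2 for Mt2, of which 2 and 1 start downstream of the window searched. The bases just before those starts were therefore not searched.

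The filtered data held 24993 cells, 4263, 10933 and 9797 in libraries 1, 2 and 3, from total counts of 72943584, 121349261 and 58172348 unique molecular identifiers (UMIs). Library 3 was the shallowest per cell, with a median of 2288 UMIs against 10381 and 9330. Between 15 and 22 barcodes were shared by any pair of libraries. Clusters were named from marker lists, and 15 classes held 50 cells or more. Epithelial-like cells were the most numerous, 9705 in all, with 1548, 6420 and 1737 in libraries 1, 2 and 3. A cluster of 96 rod photoreceptor-like cells, all in library 1, goes against the labelled tissue and was kept out of the classes. A macrophage-like cluster of 146 cells, 139 of them in library 1, held 73 UMIs of Xist although the mice are labelled male. Macrophage-like Mt1 was 1981 CPM with these cells and 2009.5 CPM without them, and Atox1 482 and 474 CPM. Different clusters supply some classes in different libraries: neutrophil-like cells came from cluster 7 in libraries 1 and 2 and from cluster 16 in library 3, and fibroblast-like cells of library 3 mostly from clusters 2, 13 and 14. Levels are CPM of the UMIs summed over the cells of a class. Intervals, printed as a low and a high bound, are exact 95% Poisson intervals that cover counting error only. Counts of 3′ ends are not divided by gene length here, so levels are compared between cells and not between genes.

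Epithelial-like, pericyte-like and smooth muscle-like cells were rich in Mt1, and lymphocytes were poor in it. In epithelial-like cells it stood at 3247, 3749 and 3753 CPM in libraries 1, 2 and 3, or 3610.3 CPM over all (3601 to 3619). Pericyte-like cells held 2819, 4378 and 2067 CPM. Smooth muscle-like cells held 3783, 4363 and 1924 CPM. The 3 classes overlapped: the highest class was smooth muscle-like in library 1, pericyte-like in library 2 and epithelial-like in library 3.

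Macrophage-like cells (1697, 2526 and 1923 CPM), fibroblast-like cells (1924, 2789 and 1564 CPM) and dendritic cell-like cells (1501, 2257 and 1266 CPM) lay in the middle of the Mt1 order. At the bottom, T cell-like cells held 167, 347 and 538 CPM and innate lymphoid-like cells 153, 352 and 606 CPM. The highest class was 11.5 times the lowest over all cells. Of the 11 neighbouring pairs among the 12 classes with a value in all 3 libraries, 10 overlapped over libraries, and the step from dendritic cell-like down to neutrophil-like cells (553, 795 and 832 CPM) did not.

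Low Mt1 in lymphocytes stood beside UMIs of epithelial markers. All 8 epithelial markers of the list (Epcam, Krt8, Krt18, Krt19, Krt7, Cdh1, Cldn7 and Cldn3) had UMIs in T cell-like cells. Their sum there was 3.23%, 6.42% and 13.5% of the epithelial level in libraries 1, 2 and 3, and Mt1 was 5.14%, 9.27% and 14.3% of its epithelial level. The share of T cell-like cells with an Mt1 UMI was 51.8% at a median of 2085 UMIs, against 98.5% of epithelial-like cells at a median of 13265 UMIs. With every cell thinned to 1000 UMIs these shares were 28.6% and 85.6%. In pericyte-like cells of library 2, where Mt1 was highest, the epithelial markers reached 31.7% of the epithelial level, against 2.71% and 5.67% in libraries 1 and 3. Whether the epithelial UMIs came from free RNA, and what part they had in these Mt1 levels, was not tested.

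**Figure D1:**
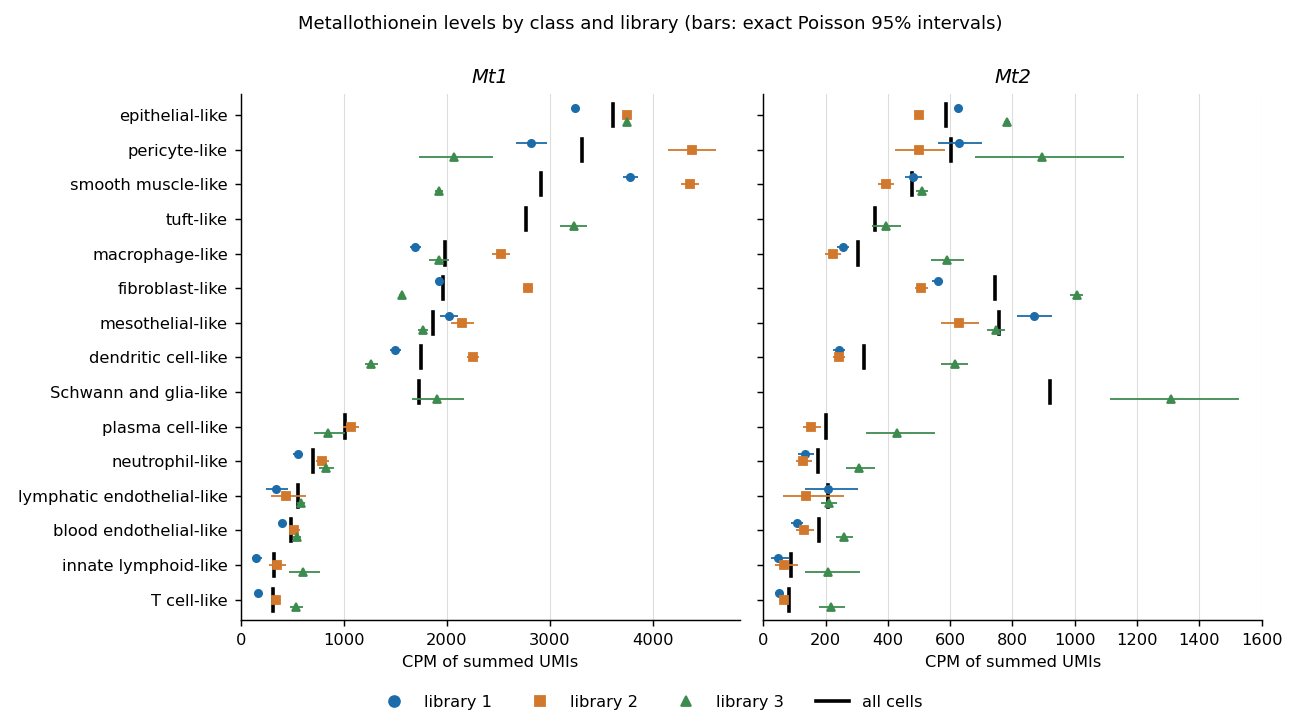
Mt1 (left) and Mt2 (right) in CPM of summed UMIs, for each of 15 classes (rows) and each library with 20 cells or more (coloured points with exact Poisson 95% intervals), with the value over all cells as a black bar. Mt1 leads in epithelial-like, pericyte-like and smooth muscle-like cells and Mt2 in Schwann and glia-like, mesothelial-like and fibroblast-like cells, while T cell-like cells are lowest for both genes over all cells.

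Mt2 had another order of classes. The 85 Schwann and glia-like cells were highest over all cells, with 919 CPM, and with 1308 CPM in library 3, the only library in which they numbered 20 or more. Library 3 supplied 160 of their 181 Mt2 UMIs. In libraries 1 and 2, where they numbered 3 and 10 and were not ranked, mesothelial-like cells were highest. Mesothelial-like cells, which line the outer surface of the organ, held 869.9, 629.6 and 747 CPM in libraries 1, 2 and 3. Fibroblast-like cells held 559, 507 and 1006 CPM, and epithelial-like cells 626, 501 and 782 CPM. T cell-like cells (49.5, 66.5 and 218 CPM) and innate lymphoid-like cells (46.7, 66.6 and 208 CPM) were the lowest over all cells. Across the 15 classes the log2 levels of Mt1 and Mt2 went together with a Pearson correlation of 0.86, a description over classes that share 3 libraries and differ in depth.

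The balance between the 2 metallothioneins differed between classes and between libraries. Epithelial-like cells held 5.19, 7.48 and 4.80 Mt1 UMIs per Mt2 UMI in libraries 1, 2 and 3. Fibroblast-like cells held 3.44, 5.50 and 1.56, and mesothelial-like cells 2.33, 3.42 and 2.37. Macrophage-like cells held 6.67, 11.4 and 3.26, and smooth muscle-like cells 7.85, 11.1 and 3.78. The ratio in the 12 classes with 3 libraries was highest in library 2 in all 12 and lowest in library 3 in 10. The 2 exceptions were mesothelial-like and lymphatic endothelial-like cells, which were lowest in library 1.

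**Figure D2:**
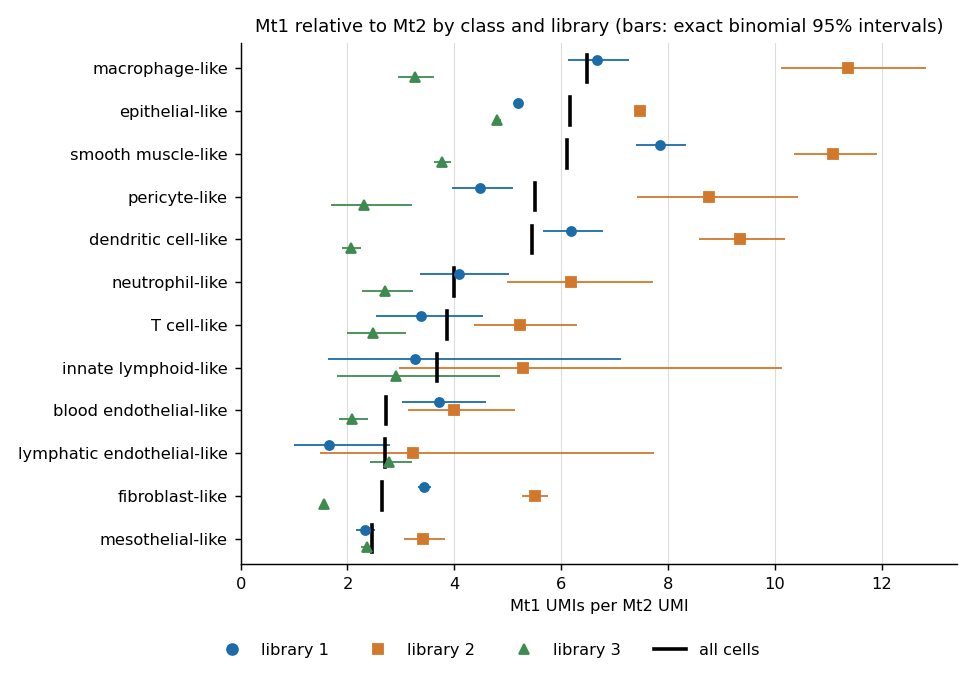
Mt1 UMIs per Mt2 UMI (horizontal axis) for the 12 classes with 20 cells or more in all 3 libraries, with exact binomial 95% intervals per library and the value over all cells as a black bar. Library 2 is the rightmost point in all 12 classes, and macrophage-like and smooth muscle-like cells reach 11.4 and 11.1 in it.

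The importer Slc31a1 was low and rather even. Pericyte-like cells led in every library, with 91.5, 71.3 and 108 CPM from 45, 22 and 7 UMIs. Neutrophil-like cells followed with 56.5, 55.3 and 59.2 CPM, then macrophage-like cells with 49.8, 43.1 and 73.9 CPM and epithelial-like cells with 36.6, 41.3 and 51.1 CPM. T cell-like cells were lowest over all cells and in libraries 1 and 2, with 12.4, 11.6 and 27.9 CPM, and dendritic cell-like cells were lowest in library 3, with 21.1 CPM. Slc31a1 (chr4:62360727-62391769) overlaps Cdc26 on the other strand, and how the counting treated strand is not given in the sources used here.

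Slc31a2, which encodes the related protein CTR2, was low in every class, and highest over all cells in neutrophil-like cells (50.1 CPM), Schwann and glia-like cells (45.7 CPM, from 9 UMIs), mesothelial-like cells (44.0 CPM), macrophage-like cells (42.9 CPM) and lymphatic endothelial-like cells (38.6 CPM). Neutrophil-like cells held 56.5, 56.6 and 31.3 CPM, mesothelial-like cells 34.5, 37.3 and 48.2 CPM, and macrophage-like cells 49.0, 35.1 and 38.1 CPM. Dendritic cell-like cells stood lower, at 14.6, 21.7 and 22.6 CPM. Epithelial-like cells held 4.97, 6.36 and 8.48 CPM, and every library of the neutrophil-like, mesothelial-like and macrophage-like cells lay above every epithelial value. Over all cells Slc31a2 was 7.89 times higher in neutrophil-like than in epithelial-like cells, whereas Slc31a1 was 1.36 times higher. The neutrophil-like values rest on 51, 44 and 18 UMIs, and the level over all cells was 32.2 CPM in place of 50.1 CPM when doublets were kept.

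Atox1, the chaperone that serves the copper ATPases, was highest in dendritic and other myeloid cells. Dendritic cell-like cells were highest in each library, with 1071, 1093 and 443 CPM. Neutrophil-like cells held 589, 831 and 157 CPM and macrophage-like cells 534, 611 and 119 CPM. Epithelial-like cells held 309, 346 and 297 CPM, with the narrowest spread over libraries of these classes. In library 3 the neutrophil-like and macrophage-like levels were below the epithelial one, so the order of classes beneath dendritic cells depends on the library.

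Library 3 was lowest for Atox1 in all 12 classes with 3 libraries, a pattern that 1.01% of the 13368 genes compared shared. Macrophage-like cells differed 5.13 times between the highest and the lowest library and epithelial-like cells 1.17 times. Thinning each cell to 1000 UMIs left macrophage-like Atox1 at 434, 627 and 114 CPM. The share of thinned macrophage-like cells with an Atox1 UMI was 30.8%, 44.1% and 10.8%.

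Ccs, the chaperone of superoxide dismutase 1, was low everywhere and highest in epithelial-like cells over all cells, with 52.5 CPM. These cells held 46.3, 63.3 and 29.1 CPM in libraries 1, 2 and 3. Mesothelial-like cells overlapped them with 41.2, 68.4 and 29.3 CPM. Neutrophil-like cells were lowest over all cells and in libraries 1 and 2, with 3.32, 5.14 and 10.4 CPM from 3, 4 and 6 UMIs, below every library's value in epithelial-like cells. Ccs was lowest in library 3 in 10 of 12 classes.

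Cox17, the mitochondrial copper chaperone, stood out in neutrophil-like cells. They held 665, 670 and 432 CPM, above every library of the other 11 classes compared. Epithelial-like cells followed with 219, 208 and 334 CPM and dendritic cell-like cells with 212, 198 and 186 CPM. Fibroblast-like cells were lowest with 59.5, 52.2 and 83.0 CPM. The neutrophil-like level over all cells was 2.01 times that of the next class, the 60 tuft-like cells, at 303 CPM. Cox17 (chr16:38346991-38352763) overlaps Gm21987 on the same strand, so its counts are uncertain where reads could belong to either gene.

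The 2 copper pumps led in different classes. Atp7a was highest in pericyte-like cells, with 44.7, 42.1 and 30.8 CPM from 22, 13 and 2 UMIs, and in macrophage-like cells, with 40.4, 28.5 and 38.1 CPM. Epithelial-like cells held 12.7, 13.6 and 11.9 CPM, and all 3 values lay below every library of pericyte-like, macrophage-like, neutrophil-like, mesothelial-like, blood endothelial-like, fibroblast-like and dendritic cell-like cells.

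Atp7b was an epithelial gene in these cells. Epithelial-like cells held 22.5, 25.1 and 68.2 CPM, and tuft-like cells, a chemosensory kind of epithelial cell, 42.6 CPM over all and 51.3 CPM in library 3. Every other class was at 10.2 CPM or less over all cells. In fibroblast-like cells Atp7b was 2.05%, 7.10% and 8.65% of its epithelial level, beside epithelial markers at 2.09%, 4.91% and 6.58%. Macrophage-like cells held 5.43%, 8.72% and 15.7% of the epithelial Atp7b level, beside markers at 3.37%, 14.2% and 10.4%. In both classes the Atp7b percentage was above that of the markers in 2 of 3 libraries and below it in 1. These percentages rest on 62 Atp7b UMIs in fibroblast-like and 15 in macrophage-like cells over all libraries, so their order against the markers is uncertain. The part of free RNA in them was not tested.

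In epithelial-like cells Atp7b was 3.03 times higher in library 3 than in library 1. The 95% intervals did not overlap: 21.2 to 23.9, 24.1 to 26.2 and 65.3 to 71.2 CPM. The share of epithelial-like cells with an Atp7b UMI, after thinning to 1000 UMIs, was 1.95%, 2.51% and 7.99%. Atp7b and Ccs were the 2 members whose epithelial level spanned 2-fold or more over libraries, and they did so in opposite directions, since Ccs was lowest in library 3. Of 15219 genes with 20 UMIs or more in these cells, 31.5% spanned as much, and 10.1% of those at 10 CPM or more. The library, its depth and its mouse group cannot be told apart for this difference.

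**Figure D3:**
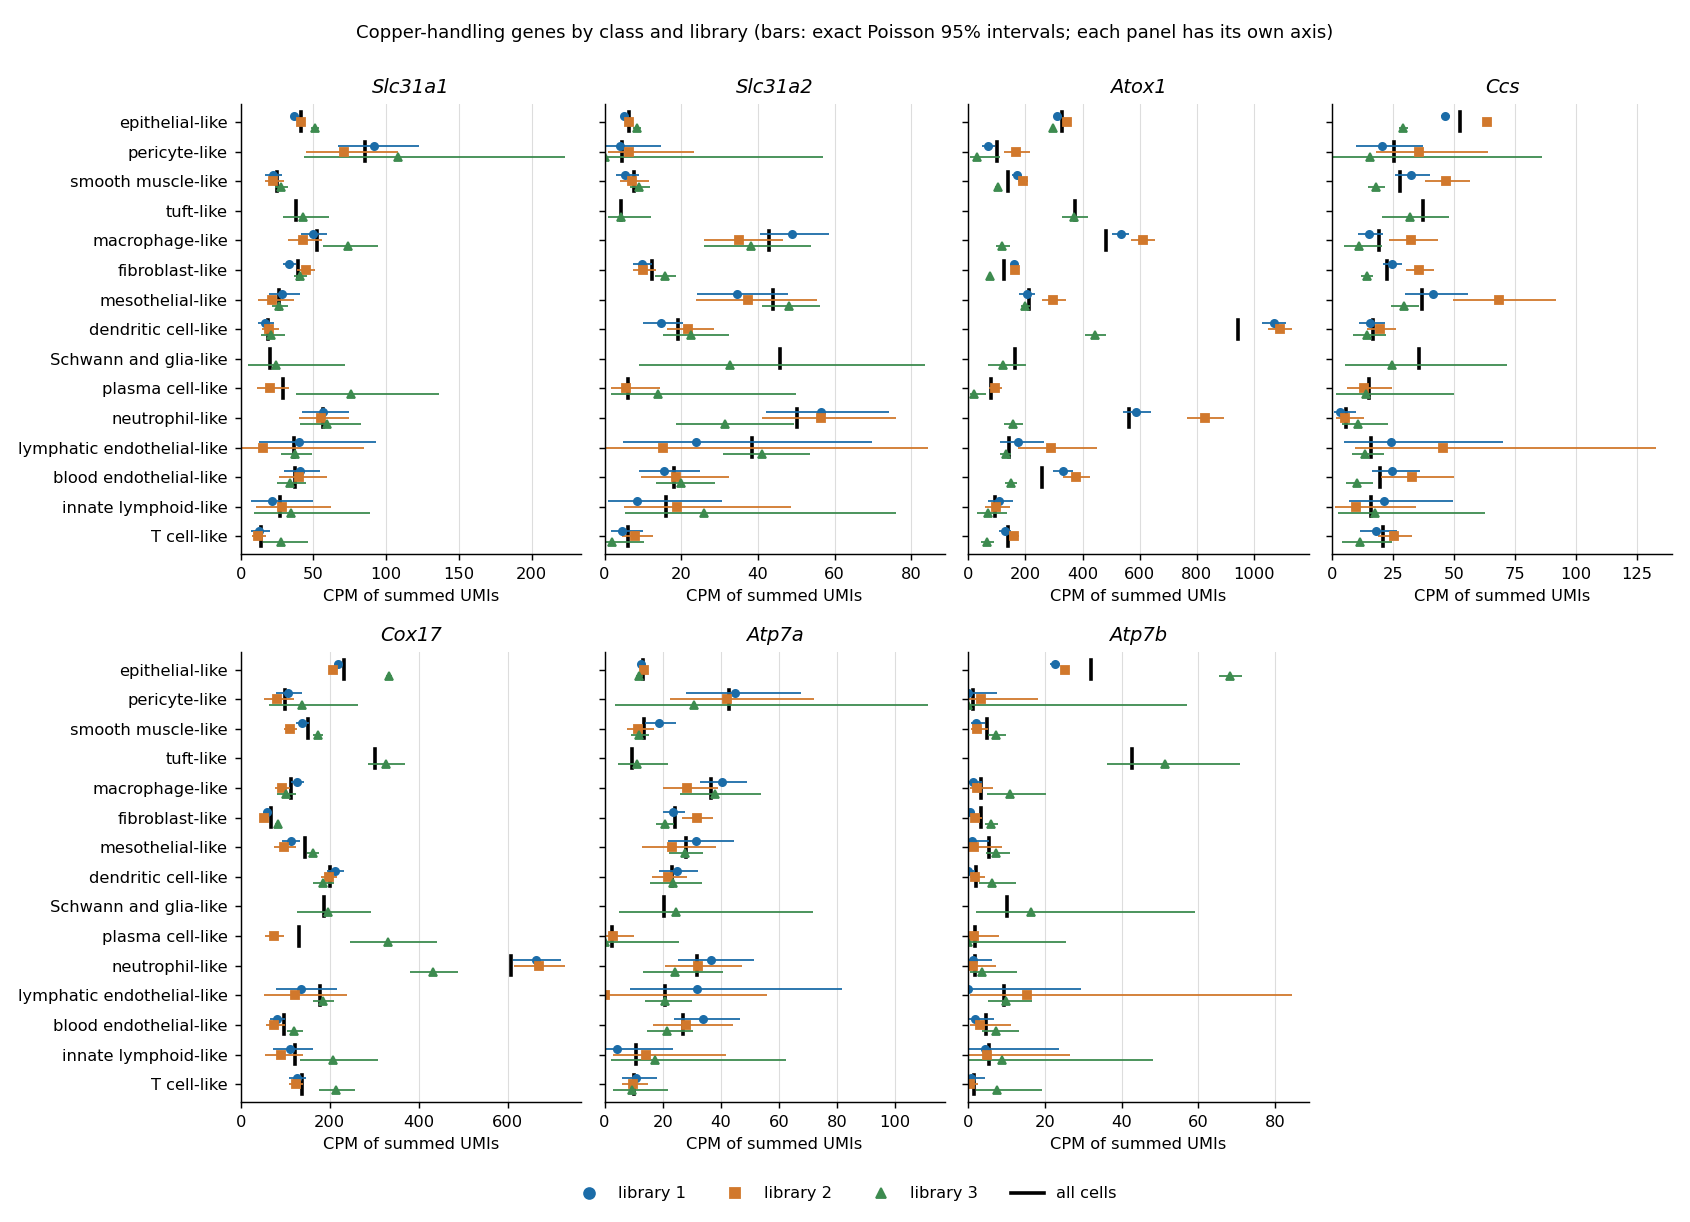
CPM of summed UMIs of the 7 copper-handling genes in 15 classes (rows), by library (coloured points with exact Poisson 95% intervals) and over all cells (black bars), each panel on its own axis. Atox1 peaks in dendritic cell-like cells, Cox17 in neutrophil-like cells and Atp7b in epithelial-like and tuft-like cells, and the library 3 point of Atox1 is the lowest in each of the 12 classes with 3 libraries.

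Adjacent classes in the order of levels were mostly within each other's spread over libraries. Of 11 such pairs among the 12 classes with 3 libraries, 2 were apart for Slc31a1 and for Cox17, 1 each for Mt1, Mt2, Slc31a2, Atp7b and Ccs, and 0 for Atox1 and Atp7a. Each member was assigned to the class where it was highest. Epithelial-like cells took 2 of 9 members, Mt1 and Ccs, where 7.38% of 13274 genes were highest in that class. Pericyte-like cells took Slc31a1 and Atp7a (4.9% of genes), and neutrophil-like cells Slc31a2 and Cox17 (8.22%). Dendritic cell-like cells took Atox1 (3.07%), tuft-like cells Atp7b (8.68%) and Schwann and glia-like cells Mt2 (19.7%). For Atp7b the tuft-like lead was seen over all cells only. In library 3 epithelial-like cells were highest, with 68.2 CPM against 51.3 CPM in tuft-like cells. Epithelial-like cells were also highest in libraries 1 and 2, but tuft-like cells, with 17 and 9 cells there, were not ranked. With so few members these counts describe the 9 genes and say nothing of the group as a whole.

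Within the epithelium, clusters were sorted into 4 kinds by Aqp1, Lcn2 and a list of interferon-induced genes, none of which is a member. Aqp1 encodes a water channel, and Lcn2 encodes lipocalin 2, an iron-withholding protein of inflamed epithelia. The 4324 Aqp1-high cells came mostly from cluster 0 in libraries 1 and 2 and from cluster 5 in library 3, and the 3316 Lcn2-high cells likewise from clusters 1 and 18. Cluster 1 was led by immune genes such as Cxcl5, Ltf and Ccl20. The 911 interferon-responding cells were almost all in library 2, with 873 cells, and 1154 cells were intermediate. The limits of 1000 CPM for Lcn2 and 500 CPM for Aqp1 and the interferon sum were set after the data were seen. The clusters nearest the Lcn2 limit had 879.7 CPM (cluster 6, intermediate) and 1359.7 CPM (cluster 18, Lcn2-high).

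Both metallothioneins and Cox17 were higher in Aqp1-high than in Lcn2-high epithelium in each library. Mt1 held 5079, 4907 and 4741 CPM in Aqp1-high cells of libraries 1, 2 and 3, and 2079.8, 2396 and 1819.9 CPM in Lcn2-high cells. Its ratio was 2.44, 2.05 and 2.61, or 2.24 over all. These 2 kinds did not overlap over libraries. Within each library intermediate cells lay between them, at 2444, 3058 and 2247 CPM. Over libraries the intermediate and Lcn2-high values overlapped, with 2247 CPM in library 3 below the Lcn2-high 2396 CPM of library 2.

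Mt2 held 905, 611 and 956 CPM in Aqp1-high and 447, 365 and 453 CPM in Lcn2-high cells, ratios of 2.02, 1.67 and 2.11. Cox17 held 320.02, 269.6 and 406 CPM against 150.5, 137 and 196 CPM, ratios of 2.13, 1.96 and 2.07. For both genes every Aqp1-high value lay above every Lcn2-high value.

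The rest of the copper genes were closer to even. Atp7a leaned to Lcn2-high cells, with 9.0, 11.2 and 11.4 CPM in Aqp1-high and 16.0, 17.1 and 13.3 CPM in Lcn2-high cells. Atox1 leaned the same way in libraries 1 and 2, with ratios of 0.84 and 0.85, and stood at 0.996 in library 3. Atp7b was 1.16, 1.13 and 1.29 times and Ccs 1.42, 1.17 and 1.19 times higher in Aqp1-high cells. Slc31a1 had ratios of 1.04, 1.24 and 1.25, and Slc31a2 changed direction between libraries, with 1.16, 1.13 and 0.88.

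Of the 9 members, 2 were at least 2-fold higher in Aqp1-high cells (Mt1 and Cox17) and 0 in Lcn2-high cells. Over the 14932 genes with 20 UMIs or more in the 2 kinds, 16.3% were 2-fold apart in either direction, 5.52% higher in Aqp1-high and 10.8% higher in Lcn2-high cells. Among genes at 10 CPM or more in either kind, 3.81% were 2-fold higher in Aqp1-high cells. The median member differed by 0.29 on the log2 scale towards Aqp1-high cells, and the median of all these genes by -0.10, towards Lcn2-high cells. Of the 9 members, 6 were higher in Aqp1-high cells in each of the 3 libraries (Mt1, Mt2, Slc31a1, Atp7b, Ccs and Cox17), where 21.2% of genes were. Atp7a and Atox1 were lower in each, where 41.4% of genes were.

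**Figure D4:**
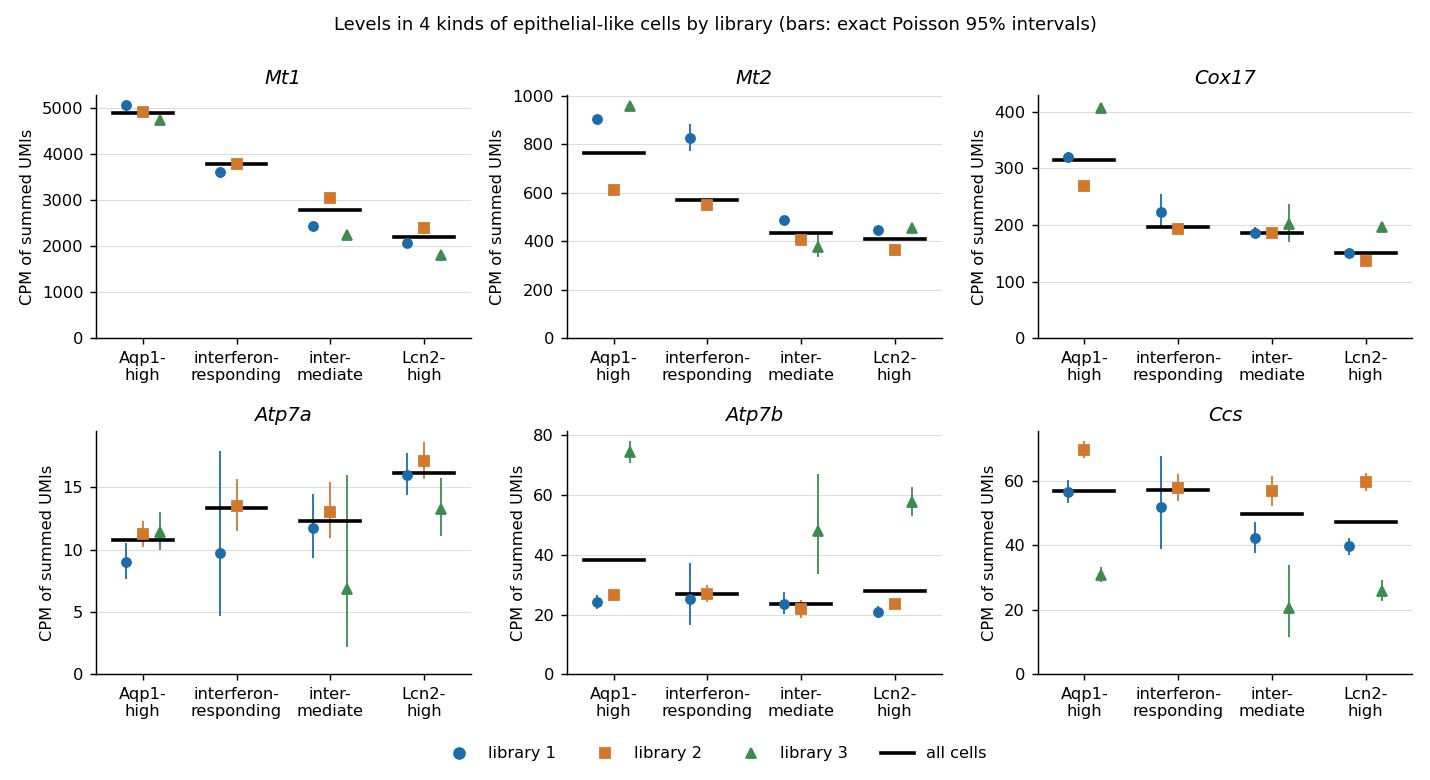
Mt1, Mt2, Cox17, Atp7a, Atp7b and Ccs in CPM of summed UMIs (vertical axes, each from 0) in 4 kinds of epithelial-like cells, by library with exact Poisson 95% intervals and over all cells as black bars. Mt1 runs from 4903 CPM in Aqp1-high to 2192 CPM in Lcn2-high cells over all, while Atp7b and Ccs separate library 3 from the other libraries within each kind that library holds.

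Both metallothioneins and Cox17 were also followed along Aqp1 without clusters. The epithelial-like cells of each library were split into cells with no Aqp1 UMI (758, 2340 and 498 cells) and 4 equal bins of the rest by their own Aqp1 level, a split chosen after seeing the data. In library 1 Mt1 stood at 2044 CPM without Aqp1 UMIs, then at 2213, 3517, 4746 and 5827 CPM in the 4 bins. It stood at 2421, 2977, 4379, 4865 and 5164 CPM in library 2 and at 1775, 2152, 4316, 5086 and 5019 CPM in library 3. Each bin thus lay above the one before, except the last of library 3. From the cells without Aqp1 UMIs to the highest bin, Mt2 went from 441 to 1097, from 375 to 654 and from 485 to 1067 CPM, and Cox17 from 148 to 324, from 138 to 278 and from 221 to 401 CPM.

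Atox1 showed little of this. It went through 336, 308, 284, 278 and 288 CPM in library 1, through 369.6, 362, 331, 326 and 325 CPM in library 2 and through 296, 297, 295, 317 and 274 CPM in library 3. Lcn2 was lower in every higher bin of each library, so the bins separate cells by both genes. In 5 equal bins with the cells lacking Aqp1 UMIs ordered by Lcn2, highest first, the end bins of Mt1 were 2065 and 5574, 2256 and 5145, and 1739.9 and 5004 CPM. Cells without Aqp1 UMIs were also shallower, with medians of 24076.5, 11246.5 and 4491.5 UMIs against 29366, 12664 and 13122 in the highest bin, and the part of depth in these differences was not tested.

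**Figure D5:**
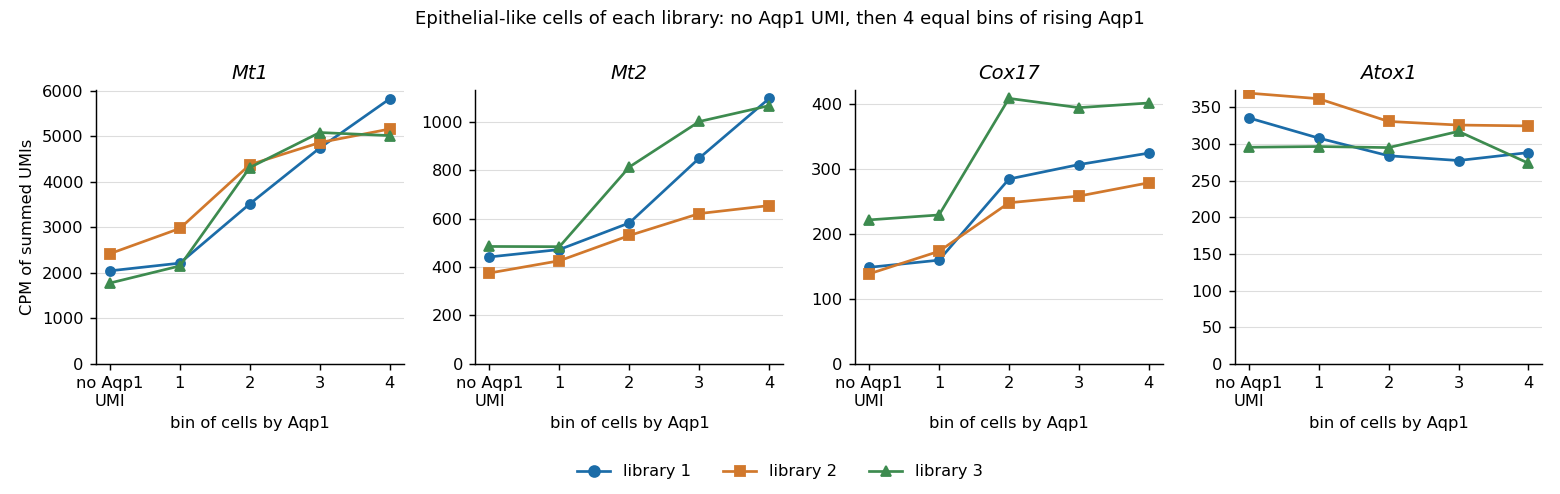
Mt1, Mt2, Cox17 and Atox1 in CPM of summed UMIs (vertical axes, each from 0) in the epithelial-like cells of each library, split into cells with no Aqp1 UMI and 4 equal bins of increasing Aqp1 (horizontal axis). Mt1 lies between 5019 and 5827 CPM in the highest bin, against 1775 to 2421 CPM in cells without Aqp1 UMIs, and Atox1 stays between 274 and 369.6 CPM throughout.

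Single cells varied widely within a kind. Among Aqp1-high cells of library 2 the median cell had 4194 CPM of Mt1, with 1163 CPM at the 5th and 10492 CPM at the 95th percentile, and 0.488% of cells had no Mt1 UMI. Among Lcn2-high cells of the same library the median was 2008 CPM, with 377 and 5563 CPM at those percentiles. The 2 distributions thus overlapped cell by cell while their sums differed 2.05 times.

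Some members shifted in library 3 in many classes at once. Counting the 12 classes with 3 libraries, Mt2 was highest in library 3 in 11, Atp7b in 10 and Cox17 in 9. So 3 of 9 members were highest there in 9 or more classes, as were 38.8% of 13368 genes with 240 UMIs or more over these classes, and the count is near that background. Atox1 was lowest there in 12 and Ccs in 10 classes, so 2 of 9 members were lowest in 9 or more, where 5.91% of genes were. Mt1 had no such direction, being highest in library 3 in 6 classes and lowest in 5. Epithelial-like cells were among the 6, although their Aqp1-high, Lcn2-high and intermediate kinds were each lowest in library 3. Library 3 is also the shallowest per cell, and its mouse group is unknown.

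Other genes of metal handling were taken from lists that share no gene with the 9. Of the other metallothionein genes, Mt4 had 1 UMI in all classes, and Mt3, known from nervous tissue, was found in Schwann and glia-like cells at 244 CPM (179.7 to 323, from 48 UMIs) against 7.02 CPM or less in each of the other 14 classes. Their regulator Mtf1 was even across epithelial-like cells, at 26.2, 26.4 and 23.1 CPM, and highest in pericyte-like cells at 63.0, 71.3 and 46.3 CPM.

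Zinc transporters were present at 10 CPM or more in some class for 16 of 24 genes and in epithelial-like cells for 14. Slc39a4, the main zinc importer of the gut, was the 1 gene of this list highest in epithelial-like cells, at 203, 189 and 176 CPM. Unlike Mt1 it was higher in Lcn2-high (301 CPM) than in Aqp1-high cells (105 CPM). Slc39a7 (74.4 CPM) and Slc39a1 (54.8 CPM) were the next highest in epithelial-like cells. Slc39a8, another zinc importer, marked mesothelial-like cells with 1508, 1015 and 1497 CPM against 24.2 CPM or less in the other classes. The zinc exporter Slc30a1 was highest in blood endothelial-like cells, at 120.3, 124 and 159 CPM. Between the epithelial kinds, 1 of 19 transporters compared was 2-fold higher in Aqp1-high cells (Slc39a5, at 0.44 against 0.21 CPM) and 2 in Lcn2-high cells (Slc39a4 and Slc30a2), counts near the 5.52% and 10.8% of all genes.

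Genes of copper delivery and reduction were the list with most genes highest in epithelial-like cells, 4 of 14 (Cox19, Commd1, Cutc and Steap1), where 7.38% of all genes were. Commd1, which helps keep ATP7A and ATP7B in place, stood at 77.7, 90.1 and 59.0 CPM. The mitochondrial phosphate and copper carrier Slc25a3 was abundant at 727, 867 and 895 CPM, and Atp6ap1 stood at 42.7, 45.4 and 73.2 CPM. Steap4, a metalloreductase, was highest in pericyte-like cells with 291, 139 and 1188 CPM, the last from 77 UMIs. In epithelium it was the 1 gene of the list 2-fold higher in Lcn2-high cells, at 9.13 against 0.81 CPM.

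Copper enzymes and copper-binding proteins leaned to Lcn2-high epithelium: 5 of 16 genes compared were 2-fold higher there and 0 in Aqp1-high cells, where 10.8% and 5.52% of all genes were. They were Cp, Heph, Loxl4, Pam and Aoc1. Cp, the plasma copper carrier ceruloplasmin, held 61.0 CPM in Lcn2-high and 2.24 CPM in Aqp1-high cells, and its highest class was lymphatic endothelial-like cells at 749, 576 and 1330.1 CPM. Aoc1, a copper amine oxidase that degrades diamines, was highest in epithelial-like cells at 28.7, 24.1 and 26.8 CPM. Heph and Loxl4 were below 2 CPM over all cells of both kinds. Sod1, the enzyme that CCS loads, stood at 266, 193 and 506 CPM in epithelial-like cells, so it was highest in library 3, where Ccs was lowest. The mitochondrial subunits that hold the copper of cytochrome c oxidase, mt-Co1 and mt-Co2, were each highest in tuft-like cells over all cells. Prnp, a copper-binding membrane protein, was highest in Schwann and glia-like cells at 3097 CPM.

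Glucocorticoid-induced genes were listed because that hormone is known to act on both metallothionein genes. Of 12, 4 were 2-fold higher in Aqp1-high cells (Fkbp5, Sgk1, Pdk4 and Sult1a1) and 2 in Lcn2-high cells (Zbtb16 and Lcn2, the latter used to define the kind), where 5.52% and 10.8% of all genes were. Sult1a1, a sulfotransferase, held 583 CPM in Aqp1-high and 55.3 CPM in Lcn2-high cells. Pdk4 was highest in Schwann and glia-like cells, at 396 CPM from 78 UMIs. Errfi1 was the other gene among the 3 highest in epithelial-like cells, at 699.5, 685 and 482 CPM. The median of this list was 0.58 on the log2 scale towards Aqp1-high cells. Fkbp5 was highest in library 3 in Aqp1-high cells, at 90.0, 96.8 and 217 CPM. In the same cells Mt2 was only slightly higher in library 3 than in library 1 (905, 611 and 956 CPM), and Mt1 was lowest in library 3 (5079, 4907 and 4741 CPM). A part of glucocorticoids in these levels was not tested.

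Among 12 glutathione and oxidative stress genes, 0 were 2-fold higher in Aqp1-high cells and 1 in Lcn2-high cells (Nqo1, at 7.89 against 0.41 CPM). These counts are near the 5.52% and 10.8% of all genes, and the list's median was -0.07 on the log2 scale. The highest class for Nqo1 was lymphatic endothelial-like cells, at 63.7, 45.5 and 62.0 CPM. Prdx1, a peroxidase, was the 1 gene of the list highest in epithelial-like cells, at 1817, 2102 and 2337 CPM. Gpx1 stood at 657, 652 and 630.4 CPM and Gclc, which limits glutathione synthesis, at 449, 443 and 975.3 CPM. Hmox1, the haem-degrading enzyme, marked macrophage-like cells at 543, 442 and 1265 CPM. Neutrophil-like cells led for Slc7a11, which imports cystine, at 1665, 1751 and 888 CPM, and for glutathione reductase, Gsr, at 685, 730.2 and 1079 CPM.

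Genes most like 3 of the members were ranked by the Pearson correlation of log2(CPM + 10) over the 15 classes. For Mt1 they were Trappc2l (0.85), Eps8 (0.85), Plxnb2 (0.83), Iah1 (0.83) and Spsb2 (0.82). For Atox1 they were Slc25a20 (0.87), Pitpna (0.85), Csf2ra (0.85), Actr3 (0.84) and Brk1 (0.84), and for Slc31a1 Ets2 (0.80), Tmem11 (0.76), Prkar2b (0.73), Fhod1 (0.71) and Vipr1 (0.71). Mt2, kept out of this ranking as a member, stood at 0.86 with Mt1. The correlation of Mt1 with the other 7 members ran from -0.21 (Slc31a2) to 0.62 (Ccs).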

How the data were processed

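The authors deposited 1 matrix of raw UMI counts for all libraries. It was made by Cell Ranger 6.1.1 against GRCm38 (mm10), per the submitters' processing notes; counter settings for strand and overlapping genes are not given in the sources used here. Barcodes under 300 genes or over 20% mitochondrial UMIs were dropped, and Scrublet (score above 0.25) removed 1024 doublets (3.94%). Counts were clustered (2000 variable genes without the listed genes, 30 components, 15 neighbours, Leiden resolution 1.0, seed 0, scanpy 1.11.5, leidenalg 0.10.2, Python 3.11.15) without batch correction. Clusters took the name of 1 of 24 marker lists where at least 3 of its markers were detected in 20% of cells. The tuft-like cluster was limited to cells with 3 of 7 markers, leaving 64 cells unnamed. Naming limits and the limits for epithelial kinds were set after the data were seen. Levels are CPM of summed counts with exact Poisson 95% intervals, given for libraries with 20 cells or more. Shares of cells were also computed with each cell thinned to 1000 UMIs, leaving out shallower cells. Simulated Poisson counts were used only to check the coverage of the intervals and the recovery of known folds by summed CPM. Doublet removal, clustering, naming, free RNA and the spread between cells or libraries were not simulated.

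No comparison between groups, and no test, was possible, since library numbers map to no sample. A gene compared between classes needed 20 UMIs over all classes and 10 CPM in 1 class. The members, the 6 other gene lists and the alternatives were chosen with earlier results of these data known. Genes named are all 9 members, the 3 genes of each list with the highest epithelial CPM, those at least 2-fold higher in 1 class than in every other, those making up a list's counts, and the 5 genes most like Mt1, Atox1 and Slc31a1 among genes at 20 CPM or more in a class. Beside the cell type markers, the leading genes of a cluster and Xist fall outside this rule and were named after their values were seen; the limit of 9 classes was also set then. Promoter windows came from RefSeq, gene positions from GENCODE M21.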

Additional observations from a re-analysis of the deposited data

How the results depend on the processing

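No paired analysis was possible because library numbers are not replicate numbers and map to no group. The number of members highest in epithelial-like cells, 2 as reported, was 1 with a mean over single cells, 1 with the median over libraries and 1 with the rod photoreceptor-like cells counted as a class, an alternative chosen after seeing the data. Mt1 passed from epithelial-like cells in 4 of 13 alternatives. It went to pericyte-like cells without library 1 and with a mean over single cells. It went to smooth muscle-like cells without library 3 and with the median over libraries. Atp7b passed from tuft-like to epithelial-like cells in 4 of 13 alternatives, but only the mean over single cells compared these classes. At a mitochondrial limit of 10% there were 0 tuft-like cells. Libraries 1, 2 and 3 held 17, 9 and 34 tuft-like cells. Without library 1, or without library 3, too few were left to count as a class. Those 3 alternatives therefore cannot test the order of tuft-like and epithelial-like cells. Slc31a2 passed from neutrophil-like cells in 5 of 13, 3 of them to Schwann and glia-like cells. Atox1, Slc31a1, Atp7a and Cox17 kept their highest class under all 13 alternatives. The number of members 2-fold apart between the epithelial kinds, 2 as reported, was 1 at a gene minimum of 500 and 1 at a resolution of 0.5; leaving out a library gave 1 to 3, with 1 without library 3. The number spanning 2-fold over libraries, 2 as reported, was 5 at a fold of 1.5. Of the levels and log2 ratios computed for single genes under alternatives, 186 stayed within the counting interval of the reported value and 98 moved outside it, which for well counted genes is narrower than the spread over libraries, and 0 changed sign. The largest move of a level was 1.56 times, for Slc31a2 in neutrophil-like cells with doublets kept. Depth limits Atp7a and Slc31a2, and all values of pericyte-like cells in library 3 (39 cells), Schwann and glia-like cells and tuft-like cells.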
